A study of Drosophila melanogaster with 3 samples.

Results

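The genes that encode the structural proteins of the Drosophila cuticle were examined for binding of SREBP, the sterol regulatory element binding protein of flies. Members were the protein-coding genes whose symbol starts with Cpr and a digit, Lcp, Ccp84A, Acp65A, Edg or Twdl, which gave 121 of 13945 protein-coding genes on the assembled chromosome arms of dm6. Of these, 70 were Cpr genes, 25 Twdl, 15 Lcp, 7 Ccp84A, 3 Edg and 1 Acp65A. Symbols and not binding values chose them.

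The data were chromatin immunoprecipitation and sequencing (ChIP-seq) peaks from 3 biological replicates of whole wandering larvae of the third instar, males and females pooled. All 3 came from 1 transgenic line that stably expressed SREBP with GFP at its N terminus. For the antibody, the labels name both GFP and HLH106. The labels do not name the promoter that drives the fusion, and all samples form 1 group, so nothing could be compared between conditions. The authors deposited 3 replicate lists and 1 pooled list of 30000 peaks each, and an optimal set that holds the strongest pooled peaks.

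The insect cuticle is a layered extracellular coat of chitin fibres and proteins that the epidermis secretes and renews at each moult. Cpr, Lcp, Ccp84A, Acp65A and most Edg proteins carry the Rebers and Riddiford consensus, a chitin-binding domain, whereas the Tweedle (Twdl) proteins form a separate family that shapes the larval and pupal body. Cuticle genes are often arrayed in tandem and are switched on in short pulses that follow the moulting hormone ecdysone. SREBP is a membrane-bound factor whose released N-terminal part enters the nucleus and is known in flies for its role in lipid synthesis.

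Almost no cuticle protein gene had a reproducible SREBP peak at its start. Only Cpr12A had the summit of an optimal peak within 500 bp of an annotated transcription start site (TSS), which is 1 of 121 members or 0.826% (95% Wilson interval 0.146 to 4.53), against 28.7% of all protein-coding genes. In the pooled list, which reaches much weaker peaks, 12 members or 9.92% (5.76 to 16.5) had a summit in reach, against 47.8% of all genes. No TSS of another protein-coding gene lay within 500 bp of any of these 12 summits. All intervals cover counting error only, and genes of 1 cluster are not independent of each other. Whole larvae mix many tissues, so binding in a few epidermal cells and weak binding in many cells cannot be told apart.

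The 3 replicate lists also gave low shares. Replicate 1 held a summit at 19 members (15.7%, 10.3 to 23.2), against 47.3% of all genes. In replicate 2 there were 7 members (5.79%, 2.83 to 11.5), against 50.8% of all genes, and in replicate 3 there were 15 members (12.4%, 7.66 to 19.4), against 50.4%. The mean was 13.7 ± 6.11 members (SD, n = 3), or 11.3 ± 5.05% of members, against 49.5 ± 1.92% of all genes (SD, n = 3). The share of members differed more between replicates than the share of all genes, and the highest member share stayed far below the lowest share of all genes.

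**Figure D1:**
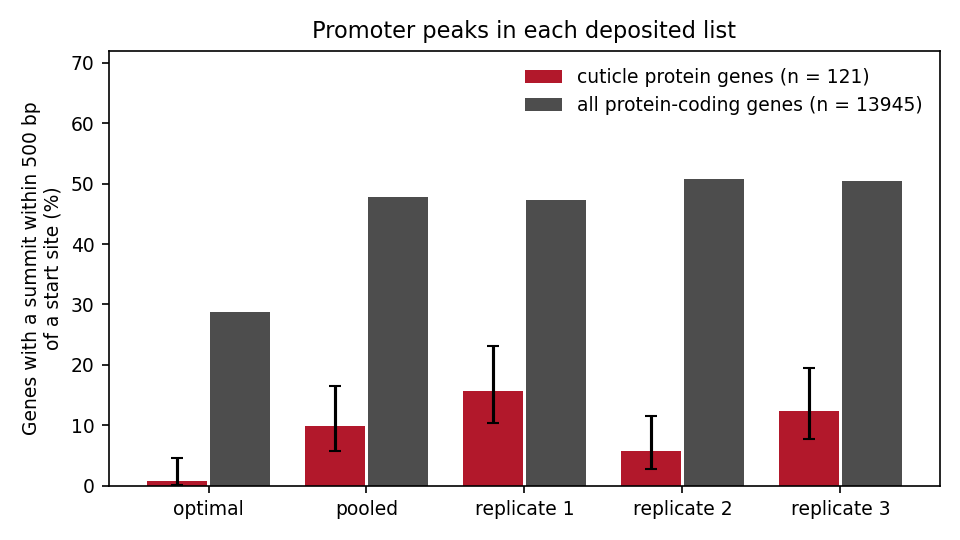
Share of genes (%) with a peak summit within 500 bp of a start site in each deposited list, for 121 cuticle protein genes (red, with 95% Wilson intervals) and all 13945 protein-coding genes (grey). The red bars run from 0.826% in the optimal set to 15.7% in replicate 1, each below its grey bar.

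Only 2 members, Cpr12A and Cpr49Ac, had a summit in reach in all 3 replicate lists, or 1.65% of members, against 36% of all genes. Replicate 1 alone held 11 members, replicate 3 alone 5 and replicate 2 alone 3. Replicates 1 and 3 shared TwdlE, Lcp2, Cpr51A, Cpr65Ec, Edg91 and Cpr92F, and replicates 2 and 3 shared Lcp9 and Cpr73D. For these partial overlaps no share of all genes is given, so they are not read as a trait of the members. The remaining 92 members (76%) had no summit in reach in any of the 5 lists, against 36.1% of all genes. Among as many of the strongest peaks of each replicate as the optimal set holds, Cpr12A was the only member found in each replicate, where 28.8%, 28.5% and 29.4% of all genes were found in replicates 1, 2 and 3.

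The peak of Cpr12A (FBgn0030494) was of middling strength but similar in the replicates. Cpr12A lies on the plus strand of X from 13543643 to 13544907, stands outside any cluster and encodes a protein with the Rebers and Riddiford domain. The optimal peak ran from 13543315 to 13543508 in intergenic sequence, with its summit 247 bp upstream of the single annotated TSS (-247). Its authors' signal value was 343, a peak height whose scale is not given, and its rank was 4687. The matched summits had ranks 4535, 4336 and 5349 in replicates 1, 2 and 3, a mean rank of 4740 ± 537 (SD, n = 3). The 300 bases centred on that summit, chrX:13543246-13543545 on the plus strand of dm6 (RefSeq Release 6), are shown because this is the one optimally bound cuticle promoter; capitals mark TATAAA, searched on both strands.
Cpr12A peak centre: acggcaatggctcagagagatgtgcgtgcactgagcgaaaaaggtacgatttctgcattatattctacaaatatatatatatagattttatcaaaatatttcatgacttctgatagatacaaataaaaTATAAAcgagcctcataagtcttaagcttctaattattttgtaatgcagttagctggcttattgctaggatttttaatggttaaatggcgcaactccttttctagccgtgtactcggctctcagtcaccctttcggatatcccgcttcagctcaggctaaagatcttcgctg
The window held none of the other letters searched, which were CACGTG (the E-box), TCACNCCAC (a sterol regulatory element), GAGAGAG (recognised by the factor Trl) and TATCGATA (DRE, the DNA replication-related element).

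The other 11 members had pooled peaks outside the optimal set. Those peaks are weaker than that of Cpr12A by construction, because the optimal set holds the strongest pooled peaks. Over all 12, the matching of summits within 150 bp found a peak in all 3 replicates for 3 members, in 2 replicates for 3 members and in 1 replicate for 6 members. How often pooled peaks at all genes were matched is not given, so this split has no background. The summits lay upstream of the TSS at 10 of the 12 members and downstream at 2. They fell in intergenic sequence at 7 members, in an exon at 4 and in an intron at 1.

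Cpr49Ac (FBgn0033725, 2R from 12386666 to 12390057) came next after Cpr12A, with a pooled summit at -6 bp, a signal value of 143 and rank 9917. Its matched ranks were 17643, 12123 and 11212 in replicates 1, 2 and 3, a mean rank of 13659 ± 3480 (SD, n = 3). Cpr51A had rank 16918 with a summit at -385 bp, and its matched ranks of 20526, 14995 and 27589 gave a mean rank of 21037 ± 6313 (SD, n = 3). Cpr49Ac and Cpr51A were the only members besides Cpr12A whose pooled peak could be matched in all 3 replicates. Their ranks were spread much more widely than those of Cpr12A. The replicate 2 match of Cpr51A lay more than 500 bp from its TSS. The strongest summits in reach of Cpr51A held rank 12555 in replicate 1 (376 bp downstream) and rank 12066 in replicate 3 (-90 bp).

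Cpr67Fb had pooled rank 10946 with a summit at -410 bp, matched at rank 16703 in replicate 1 and rank 5917 in replicate 3. That summit lies in an exon of the antisense RNA gene asRNA:CR45171, and the row in replicate 3 also matches a stronger peak farther upstream. Edg91, an ecdysone-dependent gene of the pupal cuticle, had pooled rank 20155 with a summit at -44 bp, matched at ranks 22867 and 28558 in replicates 1 and 3. Cpr65Ec had pooled rank 26487 at -73 bp and was matched at ranks 22071 and 23990 in replicates 1 and 3. None of the 3 was matched in replicate 2.

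For 6 members a single replicate held the matched peak. Replicate 1 alone matched Cpr92F (pooled rank 14110, summit at -194 bp), TwdlE (23020, -232 bp), Lcp1 (24955, -285 bp), Lcp2 (28534, 396 bp downstream) and Cpr65Eb (29233, -373 bp). Cpr67B (17547, 31 bp downstream) was matched by replicate 2 alone. Lcp1 and Lcp2 are larval cuticle protein genes of 1 cluster, and TwdlE was the only Tweedle gene with a pooled peak in reach.

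**Figure D2:**
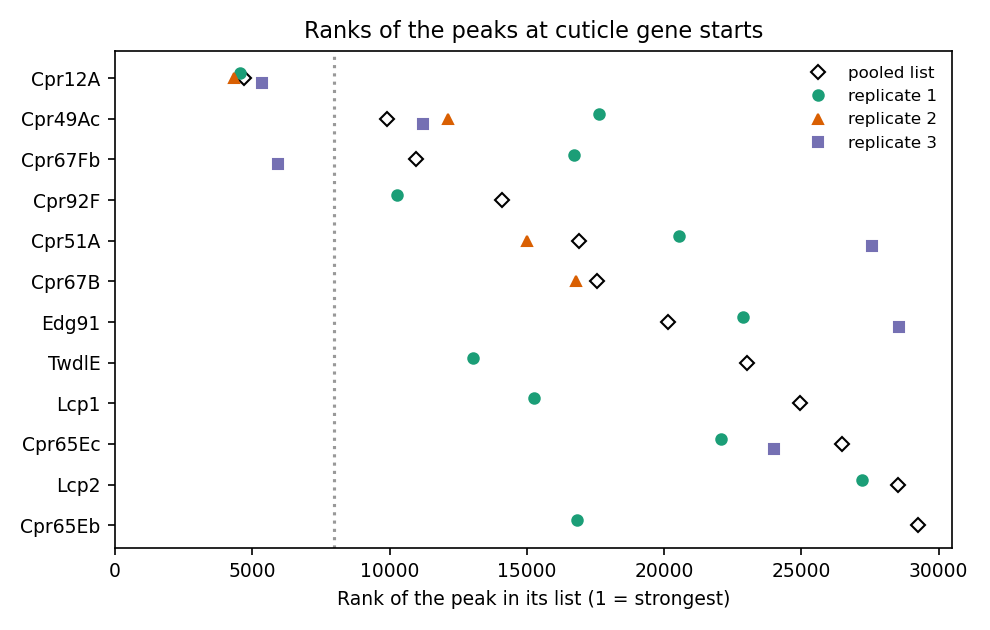
Rank of the peak at each of the 12 cuticle genes with a pooled peak within 500 bp of a start site (1 is the strongest of 30000), in the pooled list (open diamonds) and at the matched summit in each replicate list. The dotted line is the size of the optimal set: Cpr12A lies left of it in all lists, and the pooled ranks of the other members run from 9917 to 29233.

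The threshold of 500 bp left out 6 optimal peaks within 1000 bp, of which those near Cpr72Eb and Cpr62Ba were stronger than that of Cpr12A and the other 4 weaker. Cpr12A, at 247 bp, was the only member inside, and Cpr72Eb was just outside at 523 bp, followed by Cpr67Fb at 610 bp, Cpr62Ba at 783 bp, Cpr66D at 793 bp, Cpr73D at 812 bp and Cpr47Ec at 905 bp. Within 250 bp the optimal set reached 1 member (0.826%), against 23.5% of all genes. Within 1000 bp it reached 7 members (5.79%), against 32.5%, within 2000 bp 12 members (9.92%), against 38.7%, and within 5000 bp 30 members (24.8%), against 54.8%. The pooled list reached 8 members (6.61%) within 250 bp, against 40.7% of all genes, and 21 members (17.4%) within 1000 bp, against 52.9%. Within 2000 bp it reached 37 members (30.6%), against 59.8%, and within 5000 bp 69 members (57%), against 73.9%. In both lists the ratio between all genes and members was larger within 500 bp than within 1000 bp or more.

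**Figure D3:**
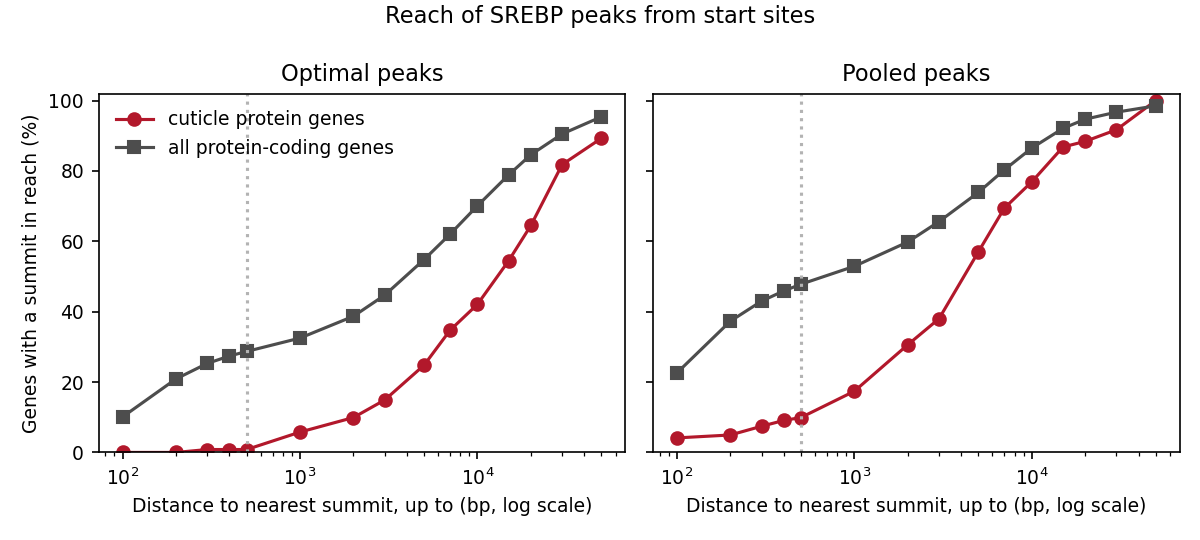
Share of genes (%) with a peak summit within a given distance of a start site (bp, log scale), for cuticle protein genes (circles) and all protein-coding genes (squares), in the optimal set (left) and the pooled list (right). At the dotted line of 500 bp the optimal shares are 0.826% and 28.7%, and the pooled shares are 9.92% and 47.8%.

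The median distance to the nearest optimal summit was 12909 bp for members (quartiles 5292 to 26024), against 3968 bp for all genes (291 to 12535). For the pooled list it was 4010 bp for members (1753 to 9410), against 685 bp for all genes (112 to 5301). Tweedle genes lay farthest away among the families of 3 or more members, with medians of 43217 bp to an optimal summit and 22533 bp to a pooled one. The Cpr genes lay nearest in the optimal set, with a median of 6530 bp, against 6772 bp for Edg, 17990 bp for Ccp84A and 19986 bp for Lcp. Acp65Aa, which encodes an adult cuticle protein, stood 27912 bp from the nearest optimal summit and 1009 bp from the nearest pooled one. No Ccp84A gene had a summit in reach in any list, against 23 of 70 Cpr, 4 of 15 Lcp, 1 of 3 Edg and 1 of 25 Twdl genes. Of all genes, 36.1% had none in any list. The 7 Ccp84A genes lie in 1 cluster and are not independent, and differences between families were not tested.

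Within 1000 bp of a member TSS there were 7 optimal peaks, 6 of them beyond 500 bp, and they varied in strength. The strongest belonged to Cpr72Eb (FBgn0036618), which lies on 3L from 16364899 to 16365707 on the plus strand. Its peak ran from 16364204 to 16364537, with the summit at -523 bp in the gap after Cpr72Ea, a signal value of 1074 and rank 1424. The matched ranks were 1799, 1462 and 1147 in replicates 1, 2 and 3, a mean rank of 1469 ± 326 (SD, n = 3). The 300 bases centred on this summit, chr3L:16364226-16364525 on the plus strand, are printed as the strongest peak in a cuticle gene cluster, with an overlapping pair of TATAAA matches, 1 on each strand, in capitals.
Cpr72Eb peak centre: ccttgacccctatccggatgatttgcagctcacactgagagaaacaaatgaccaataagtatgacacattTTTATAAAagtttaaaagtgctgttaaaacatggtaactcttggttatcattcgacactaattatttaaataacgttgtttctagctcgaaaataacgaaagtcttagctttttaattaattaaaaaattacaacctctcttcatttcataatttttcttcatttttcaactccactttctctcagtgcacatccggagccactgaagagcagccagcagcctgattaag
Here too neither the E-box nor the other 3 sequences were found in the window.

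Cpr62Ba had an optimal peak in its own intron (3L from 1829588 to 1829858, rank 3047), whose summit was placed at -783 bp from one of its TSSs. Matched ranks there were 3598, 2678 and 3055, a mean rank of 3110 ± 462 (SD, n = 3). The optimal peak near Cpr67Fb, with its summit at -610 bp and rank 5237, had matched ranks of 5627, 5142 and 5917, a mean rank of 5562 ± 392 (SD, n = 3). These 3 peaks and that of Cpr12A held similar ranks in the 3 replicates.

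Cpr73D (summit at 812 bp, rank 5893), Cpr47Ec (905 bp, rank 6398) and Cpr66D (793 bp, rank 6811) had weaker optimal peaks downstream of the TSS. Their mean ranks over the replicates were 6877 ± 2075, 7194 ± 2704 and 7982 ± 2050 (SD, n = 3 each). In the 300 bases around the summit, 5 of the 7 peaks held TATAAA on either strand, against 46.7% of all optimal peaks, and 1, that of Cpr62Ba, held CACGTG, against 3.05% of all. None of the 7 held TCACNCCAC (0.613% of all), GAGAGAG (6.09%) or TATCGATA (4.95%).

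Cuticle genes sit in tandem, and the clusters were poor in reproducible peaks. Runs of at least 3 members with gaps of at most 20 kb gave 15 clusters that held 88 members over 243 kb. No member in a cluster had an optimal summit in reach and 6 (6.82%) had a pooled one, against 1 and 6 (18.2%) of the 33 members outside clusters. Inside the clusters lay 5 optimal summits, a density of 20.6 per Mb (exact Poisson interval 6.68 to 48), against 59.1 per Mb on the same arms, weighted by cluster length, and 55 per Mb in the 20 kb on either side of each cluster. The ratio to the same arms was 0.348.

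The pooled list gave 38 summits in the clusters, 156 per Mb (111 to 214), against 225 per Mb on the same arms and 237 per Mb in the flanks. In replicates 1, 2 and 3 the density was 193, 69.9 and 144 per Mb, a mean of 136 ± 62.1 per Mb (SD, n = 3), with ratios to the same arms of 0.85, 0.31 and 0.639. The exact Poisson interval of replicate 1 (142 to 257) included the 227 per Mb of the same arms, whereas those of replicate 2 (40.7 to 112) and replicate 3 (100 to 200) lay below the 226 and 225 per Mb of the same arms. The 13 other protein-coding genes inside the clusters had no optimal peak in reach, against 28.7% of all genes. A pooled peak was in reach of 4 of them, against 47.8% of all genes. With 13 genes these counts are too few to compare with those shares.

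One cluster held nearly as many pooled summits as all others together. The cluster from Cpr49Aa to Cpr49Ah (2R from 12376626 to 12415170, 38.5 kb) held 18 of the 38 pooled summits, or 467 per Mb, against 208 per Mb over arm 2R, and no optimal one. Without it the pooled density of the other 14 clusters was 97.7 per Mb, 20 summits in 205 kb, and the optimal density was 24.4 per Mb. Of the 18 summits, 14 lay between 3.45 and 13.18 kb from the start of Cpr49Aa, over and before Cpr49Ac, and the other 4 between 31.98 and 36.67 kb. Ranks ran from 9917 to 28649, 10 summits were intergenic, 6 exonic and 2 intronic, and 2 were matched in all 3 replicates. The matched share of all pooled peaks is not given beside this count. The 4 other genes with a pooled peak in reach, CG13155, CG8501, CG30050 and CG33627, all lie here.

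The Tweedle clusters held no summit at all. The 3 clusters from TwdlF to TwdlV (3R from 4247020 to 4255833), TwdlM to TwdlD (3R from 26619118 to 26641054) and TwdlX to Twdlalpha (X from 16731091 to 16744365) held 19 members in 44 kb and no summit in any of the 5 lists. The stretch around TwdlM to TwdlD free of pooled summits spanned 97.7 kb and held 14 genes, 12 of them members, and the stretch free of optimal summits spanned 157 kb. TwdlD, whose mutant form gives the Tubby-like short body, was the member farthest from any pooled summit, at 47240 bp, and TwdlS was the farthest from an optimal one, at 77677 bp. The flanks of the other Tweedle clusters were not empty: 13 pooled summits lay within 20 kb of TwdlF to TwdlV and 19 within 20 kb of TwdlX to Twdlalpha, against 0 around TwdlM to TwdlD.

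**Figure D4:**
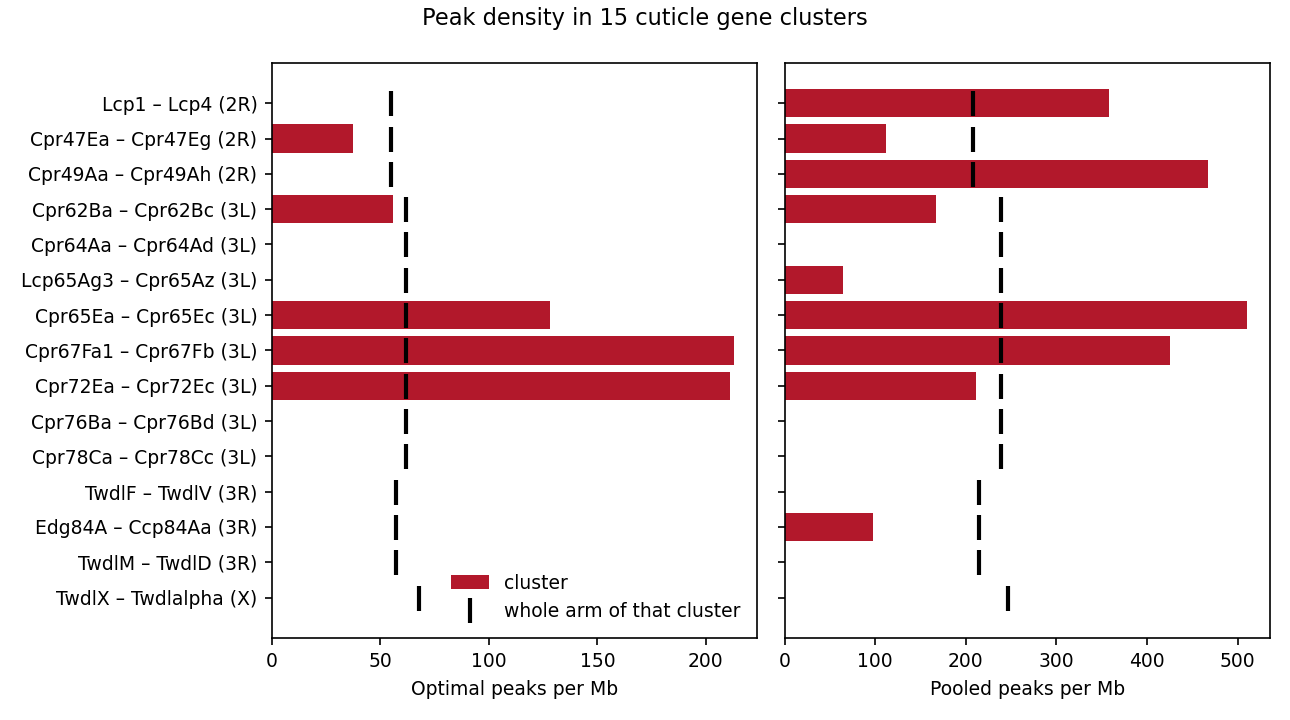
Optimal (left) and pooled (right) peaks per Mb in each of the 15 cuticle gene clusters (bars, with the arm in parentheses) and over the whole arm of that cluster (vertical ticks). Cpr49Aa to Cpr49Ah reaches 467 pooled peaks per Mb with no optimal one, against 510 in Cpr65Ea to Cpr65Ec, and the 3 Tweedle clusters, Cpr64Aa to Cpr64Ad, Cpr76Ba to Cpr76Bd and Cpr78Ca to Cpr78Cc have none of either.

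Among the clusters of larval, pupal and adult cuticle genes, optimal summits were few and pooled densities varied. The largest, from Lcp65Ag3 to Cpr65Az (3L from 6130386 to 6161589), held 18 members in 31.2 kb with no optimal and 2 pooled summits, 64.1 pooled summits per Mb against 239 over arm 3L. Repeated sequence at several of its start sites, described below, limits this value. The cluster from Edg84A to Ccp84Aa (3R from 6684445 to 6704903) held 8 members in 20.5 kb with no optimal and 2 pooled summits, 97.8 pooled summits per Mb against 215 over arm 3R. Lcp1 to Lcp4 (2R from 8430115 to 8438495) was denser than its arm, with 3 pooled summits in 8.38 kb, 358 per Mb against 208 over arm 2R. These 3 summits were matched in replicate 1 alone, and none was optimal. Cpr47Ea to Cpr47Eg (2R from 11251751 to 11278445) held 3 pooled summits of which 1 was optimal, 112 pooled summits per Mb.

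The 4 Cpr clusters of 3 members each held an optimal summit. Cpr65Ea to Cpr65Ec (3L from 7086003 to 7093841) held 4 pooled summits, Cpr62Ba to Cpr62Bc (3L from 1824129 to 1842084) held 3, Cpr67Fa1 to Cpr67Fb (3L from 10889990 to 10894693) held 2 and Cpr72Ea to Cpr72Ec (3L from 16362603 to 16367340) held 1. The optimal summit of Cpr65Ea to Cpr65Ec (rank 7556) lay 2197 bp upstream of Cpr65Eb and had no match in replicate 2. Cpr64Aa to Cpr64Ad (3L from 4207838 to 4216414), Cpr76Ba to Cpr76Bd (3L from 19517552 to 19538289) and Cpr78Ca to Cpr78Cc (3L from 21291860 to 21301171), which also holds the pupal cuticle gene Edg78E, had no summit in the optimal or pooled list.

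**Figure D5:**
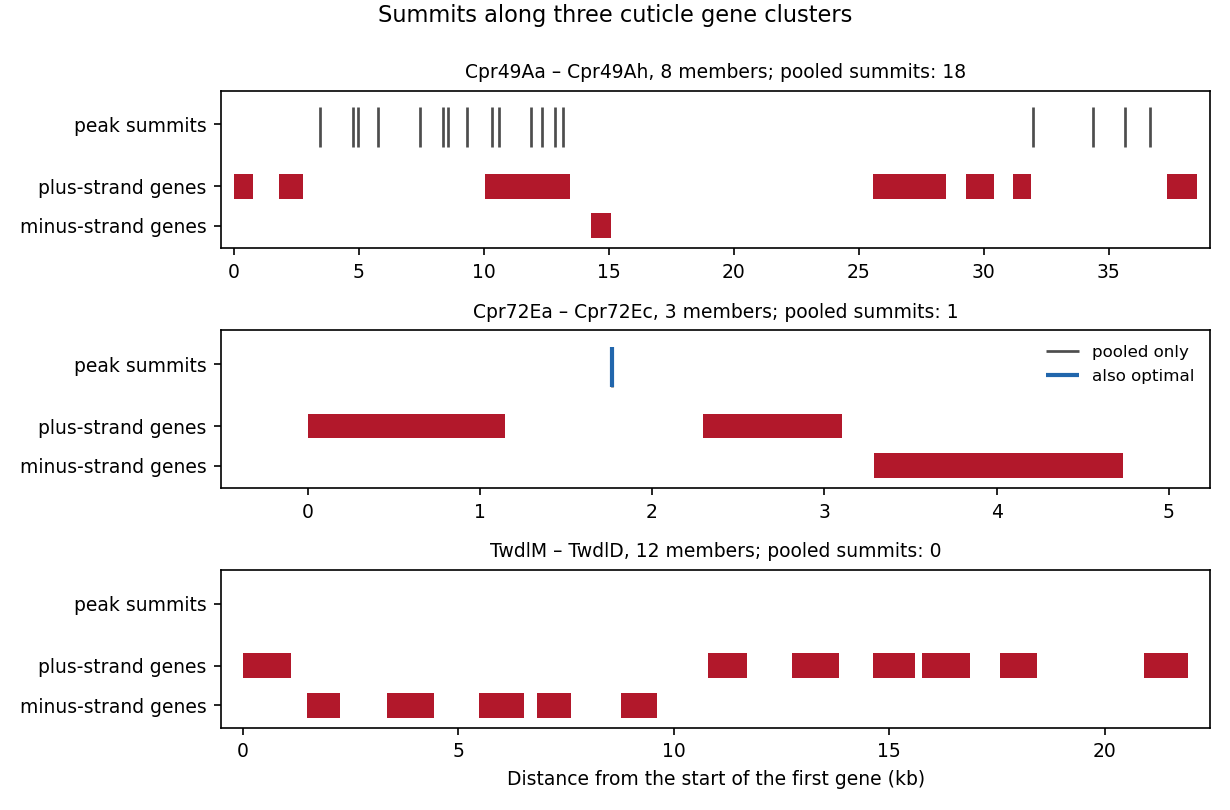
Summits (ticks; blue where also optimal) above the member genes (red, by strand) of 3 clusters, against distance from the start of the first gene in kb, with a scale of its own in each panel. The 18 pooled summits of Cpr49Aa to Cpr49Ah lie in 2 groups, Cpr72Ea to Cpr72Ec has 1 summit in front of Cpr72Eb, and TwdlM to TwdlD has none.

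Many cuticle genes also shared a promoter feature that the choice of members did not use, although it was examined only after values were seen. A TATA box, the site where the TATA-binding protein places the transcription machinery, is typical of strongly regulated genes with a sharply defined start. TATAAA on the coding strand starting 45 to 20 bases before the TSS was found in 74 members (61.2%), against 8.81% of all genes, at a median start of -29 in members and -30 in all genes. By family it was found in 39 of 70 Cpr, 15 of 25 Twdl, 11 of 15 Lcp, 5 of 7 Ccp84A, 3 of 3 Edg and the single Acp65A gene. The 60 bases before the TSS are shown for 9 members, with at least 1 of each family, on the plus or minus strand of dm6, in the direction of transcription and ending at the base before the TSS, with this TATAAA in capitals.
Cpr12A, chrX:13543583-13543642, plus strand: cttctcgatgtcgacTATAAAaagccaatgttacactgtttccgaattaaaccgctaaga
Cpr72Eb, chr3L:16364839-16364898, plus strand: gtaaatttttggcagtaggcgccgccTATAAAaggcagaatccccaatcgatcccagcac
Edg84A, chr3R:6684385-6684444, plus strand: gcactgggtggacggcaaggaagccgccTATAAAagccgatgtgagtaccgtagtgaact
Edg78E, chr3L:21297804-21297863, minus strand: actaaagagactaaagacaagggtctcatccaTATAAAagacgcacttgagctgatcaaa
Ccp84Aa, chr3R:6704024-6704083, plus strand: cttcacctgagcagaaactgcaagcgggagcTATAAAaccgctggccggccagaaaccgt
Acp65Aa, chr3L:6152746-6152805, minus strand: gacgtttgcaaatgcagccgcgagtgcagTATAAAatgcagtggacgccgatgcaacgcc
TwdlD, chr3R:26639965-26640024, plus strand: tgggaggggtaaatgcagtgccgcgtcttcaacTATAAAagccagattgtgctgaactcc
Lcp65Ag2, chr3L:6133594-6133653, minus strand: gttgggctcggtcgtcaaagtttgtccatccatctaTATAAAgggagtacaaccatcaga
Lcp65Ag1, chr3L:6135275-6135334, minus strand: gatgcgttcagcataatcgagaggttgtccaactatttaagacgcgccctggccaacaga
The first 8 carry the motif, and Lcp65Ag1, a neighbour of Lcp65Ag2 in the same cluster, is shown as a member without it.

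In the 300 bases from 250 before to 50 after the first TSS, TATAAA on either strand was found in 91 members (75.2%, 66.8 to 82), against 45.8% of all genes. The E-box CACGTG was found in 3 members (2.48%, 0.847 to 7.04), Cpr65Az, Ccp84Ab and TwdlC, against 4.2% of all genes. TCACNCCAC was found in no member, which allows a share of up to 3.08% by the Wilson interval, and in 0.545% of all genes. GAGAGAG was found in Cpr66D alone (0.826%), against 5.87% of all genes, and TATCGATA in Cpr49Af alone (0.826%), against 9.36%. Among other genes, 45% of those with TATCGATA had an optimal peak in reach, against 27.3% of those without it. The G+C content of the window had a median of 44% in members (quartiles 39.7 to 48.3), against 38% in all genes (33.3 to 44.3).

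Members differed from other genes in structure in ways that moved with binding. A single TSS was annotated for 110 members (90.9%), against 73.3% of other genes. No TSS of another protein-coding gene lay within 500 bp for 95.9% of members, against 68.9% of other genes. The median length of members was 957 bp, and no median of other genes is given beside it. Among genes with 1 TSS and no other TSS in reach, 1 of 106 members had an optimal peak and 9 (8.49%) a pooled one, against 13.6% and 31.2% of 7240 other genes. Restricted further to genes under 2000 bp, the counts were 1 and 6 (6.38%) of 94 members, against 9.32% and 23.2% of 4142 other genes. With a placed TATAAA as well, they were 1 and 4 (6.25%) of 64 members, against 3.52% and 12.6% of 625 other genes. The member counts in these narrower sets are small, no interval was computed for them, and the differences were not tested. The share of other genes with an optimal peak was thus 3.52% among those most like the members in these respects, against 29% of all other genes. The part of gene structure in the low share was not tested.

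Repeated sequence, at which reads may not map uniquely, was measured beside these values. Over 10% of the 31-base words within 500 bp of the first TSS occurred more than once in the assembly for 15 members (12.4%), against 4.27% of all genes. The highest shares were 90.4% at Lcp65Ab1 and Lcp65Ab2, a near-identical gene pair, 76.4% at Cpr65Ax1 and 72.1% at Cpr65Ax2. In the same cluster, Lcp65Ag1, Lcp65Ag2, Lcp65Ag3 and Lcp65Aa had 32.3 to 40.8%. Ccp84Aa had 23% and Ccp84Ab 21.5%, and TwdlM, TwdlL, TwdlK and TwdlJ had 10.7 to 16.9%. The absence of a peak at these genes is uncertain, and so in part is the low number of summits in their clusters. Among the 106 members at or under 10%, 1 (0.943%) had an optimal peak and 11 (10.4%) a pooled one, against 29.8% and 49.1% of all such genes.

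Other large families of genes used in few tissues were set beside the cuticle genes. Optimal peaks were in reach of 1 cuticle gene in 121 (0.826%), against 2 of 179 chemosensory receptor genes (1.12%, 0.307 to 3.98), 2 of 51 odorant-binding protein genes (3.92%, 1.08 to 13.2) and 7 of 85 cytochrome P450 genes (8.24%, 4.05 to 16). Pooled peaks were in reach of 9.92% of cuticle genes, against 6.7% of the receptor genes, 11.8% of the odorant-binding protein genes and 27.1% of the P450 genes. The intervals of the cuticle genes overlap those of the receptor and odorant-binding protein genes in both lists, whereas the P450 genes had higher shares, with an interval in the pooled list (18.8 to 37.3) that lies above that of the cuticle genes.

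The genes that build, tan and regulate the cuticle were counted in the same way. No difference between these lists and the members or all genes was tested. The lists are short and were chosen with earlier results of these data known, and their shares are given without intervals. Of 18 genes of chitin synthesis and assembly, 3 (16.7%) had an optimal peak in reach and 10 a pooled one, against 28.7% and 47.8% of all genes. These were Cht7, a chitinase gene (rank 1339, summit at -155 bp), Gfat2, whose enzyme starts the hexosamine pathway that supplies chitin (rank 1718, -213 bp, shared with the TSS of Moca-cyp), and rtv, a chitin assembly gene (rank 5699, 3 bp downstream, shared with that of Dlic). The chitin synthase gene kkv had a pooled but no optimal peak, of rank 16248, and its nearest optimal summit lay 1083 bp away. The precursor enzyme gene mmy likewise had a pooled peak alone, of rank 14516, with an optimal summit 537 bp away.

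Of 11 tanning genes, 2 (18.2%) had an optimal peak and 5 a pooled one, against 28.7% and 47.8% of all genes. They were Ddc, dopa decarboxylase (rank 6269, -71 bp), and Pu, whose enzyme starts the synthesis of the cofactor of tyrosine hydroxylase (rank 6703, -286 bp, shared with CG4286). The tyrosine hydroxylase gene ple had a pooled peak of rank 15709 and y, of dark pigment formation, had none in the pooled list. Among 19 other cuticle and apical matrix genes, 1 (5.26%) had an optimal peak, tyn, a zona pellucida domain gene (rank 1362, -215 bp), and 8 had a pooled one, against the same shares of all genes. For resilin, the gene of the elastic cuticle protein, the nearest optimal summit lay 1722 bp away. For Tb, another body shape gene that the symbol rule for members left out, it lay 57925 bp away.

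Of 16 regulators of epidermal cuticle genes, 8 (50%) had an optimal peak and 13 a pooled one, against 28.7% and 47.8% of all genes. The ecdysone-response genes Eip75B (rank 261, 29 bp downstream), Eip74EF (rank 3183, -272 bp) and br (rank 6341, -291 bp) were among them, as were vri (rank 1774, -192 bp), ftz-f1 (rank 4786, -219 bp), Blimp-1 (rank 4793, -464 bp) and crol (rank 7368, -102 bp). The epidermal factor gene grh had a peak of rank 979, 215 bp downstream of a TSS. Hr38 and abd-A had none in either list. The strongest summits in reach in replicates 1, 2 and 3 held ranks 333, 175 and 339 for Eip75B and 1124, 783 and 1081 for grh. For Blimp-1 they held ranks 6735, 25780 and 5517, far weaker in replicate 2. Most of these genes have more start sites than most members, which have 1. The highest numbers were 9 for br and 7 for Eip75B, whereas Hr38, Dfd and ken have 1. The part of start site number in the higher share was not tested.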

How the data were processed

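ChIP-seq peaks of SREBP from 3 replicates of 1 group were analysed, with replicate numbers from the labels. The authors deposited narrowPeak lists on dm6, derived per the deposited notes from each replicate's alignments and 1 shared further file, from all alignments (pooled), and from these lists together (optimal, 7993 rows, all of them the strongest pooled rows). The aligner, caller and IDR threshold are not stated in the sources used here. The deposited signal value served to rank peaks inside 1 list and for nothing else. The lists hold no reads, so depth is unknown. The labels name both GFP and HLH106 for the antibody.

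Genes came from Ensembl's BDGP6 annotation and sequence from RefSeq Release 6, whose arms match dm6 in length. A gene had a peak where a summit lay within 500 bp of any TSS, taking the strongest. Summits of different lists were matched within 150 bp. Motifs were searched on both strands, except the placed TATAAA (coding strand only). Python 3.11.15, numpy 2.4.6, pandas 2.3.3 and scipy 1.17.1 were used. The assignment was tested on simulated data, where 200 of 200 planted genes were found. Members, lists and rules were chosen with earlier results of these data known. The placed TATAAA, gene structure, repeated words, flanks and like families were chosen after values were seen. Named genes were members with a peak in reach, those nearest the threshold, the ends of each cluster, and up to 6 bound and 2 unbound genes of each context list. The last 2 of the regulators by rank, and members named for family, motifs or distance, are beyond that rule. Of the context lists, Dat and dp had no match by symbol and were not used here.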

Additional observations from a re-analysis of the deposited data

How the results depend on the processing

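Of 51 alternatives, 35 stayed within 1.5 times a reported count or within the interval of a reported share or density, and 16 moved. Among the 51, 4 were added after the data were seen. The count of members with an optimal peak became 7 within 1000 bp (32.5% of all genes). It became 0 in the stronger part of the set, above its median signal (17.6%). The pooled count became 21 within 1000 bp (52.9% of all genes), 4 among the strongest 15000 peaks (39.3%), and 3 to 7 when each replicate was left out and a match in both others required (34.5 to 37.7%). The mean count per replicate list became 8 within 250 bp (41.4% of all genes) and 23 within 1000 bp (55.2%). It became 1 among as many of the strongest peaks as the optimal set holds (28.9%). Leaving out each replicate gave 11 to 17 (48.8 to 50.6% of all genes).

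The pooled density in clusters became 45.2 per Mb among the strongest 15000 peaks (112 over all arms), 97.7 without the Cpr49A cluster, and 24.7 to 57.6 with each replicate left out (109 to 117 over all arms). The lists cut by strength or by a required match hold fewer peaks by construction, whereas the setting without the Cpr49A cluster drops 1 dense cluster. The optimal density was 8.22 per Mb in the stronger part of the set (29.8 over all arms), 2 summits and inside the wide reported interval. The share of members with TATAAA became 82.6% from 500 bases upstream, against 63.5% of all genes. In each setting with a share for all genes the members' share of peaks stayed lower. No paired analysis was possible because the samples form 1 group. Depth is unknown, so a weak peak that was missed cannot be told from none. The lists end at 30000 rows, and 3 replicates limit the precision.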
